A study of Mus musculus with 2 samples.

Results

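Long-read RNA sequencing of the mouse adrenal gland was searched for the genes that make, load, recapture and break down catecholamines. The set held 10 genes named beforehand, Th, Ddc, Dbh, Pnmt, Slc18a1, Slc18a2, Slc6a2, Cyb561, Gch1 and Maoa, and every transcript model carrying one of these gene names was taken from both libraries. All 10 genes were found among 18580 annotated genes with reads, in 151 of 107755 models in replicate 1 and in 153 of 137106 models in replicate 2. They took 3770 reads (0.406% of the reads on annotated genes) in replicate 1 and 3017 reads (0.231%) in replicate 2.

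The series has 1 group: whole adrenal gland of male B6CASTF1/J mice aged 10 days, the first-generation offspring of C57BL/6J and CAST/EiJ parents, with no treatment named in the labels. Replicates 1 and 2 are total RNA with synthetic spike-in RNAs added, and a starting amount of 1 µg is recorded for replicate 2. Both replicates carry the same donor in the labels, and replicate 2 has conflicting animal names, so it is unclear whether 1 or more animals were sampled. Every p value below sets a difference between these libraries against counting error alone, with each read taken as independent. The spread between libraries or animals is not estimated by it. No condition is compared; the comparisons are between genes, between transcript structures and between the libraries.

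Catecholamines are made in the chromaffin cells of the adrenal medulla from tyrosine. Tyrosine hydroxylase makes dopa, dopa decarboxylase turns it into dopamine, dopamine beta-hydroxylase makes noradrenaline inside the secretory vesicle, and phenylethanolamine N-methyltransferase makes adrenaline in the cytosol. Vesicular monoamine transporters load the amines into the vesicles, and cytochrome b561 carries electrons across the vesicle membrane to keep ascorbate, the cofactor of dopamine beta-hydroxylase, reduced.

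Replicate 1 held 927914 reads on annotated genes and replicate 2 held 1303420, and a level is given as reads per 1000000 of these (CPM). Since 0 reads allow for up to 3, a gene without reads may have had up to 3.23 CPM in the first library and 2.30 in the second. The tissue label was checked against marker lists: all 8 genes of the adrenal cortex list and all 8 of the chromaffin cell list had reads in both libraries, whereas 5 of 7 kidney tubule genes had none in either. All 7 hepatocyte genes and all 6 brown fat genes also had 10 CPM or more in both libraries. The mean length of the model a read was assigned to was 2335 nt in replicate 1 and 1904 nt in replicate 2. In such bulk tissue, fewer chromaffin cells and less RNA per chromaffin cell cannot be told apart.

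The sequences below show the splice junctions and upstream regions that the results turn on. Cyb561 is read from the minus strand of chromosome 11, and its start codon lies 13 bases into an exon that almost all of its multi-exon reads shared. The first pair shows the last 10 bases of the upstream exon and the first 20 of that shared exon, taken from GENCODE M21 transcripts on mm10, with the start codon in capitals. The upper junction joins chr11:105944111-105944120 of the annotated first exon to chr11:105937821-105937840, and the lower one joins chr11:105940100-105940109, the exon used by most reads, to the same shared bases.
Cyb561 annotated first exon: gcgggacaagctggggtctcagaATGgagc
Cyb561 most-used upstream exon: acccaagaggctggggtctcagaATGgagc

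A second pair shows the junction of exon 4 (last 15 bases, chr11:105936182-105936196) with exon 5 of Cyb561 at its usual acceptor (chr11:105935895-105935909) and at an acceptor 44 bases upstream (chr11:105935939-105935953), with the first bases of exon 5 in capitals.
Cyb561 exon 4 to 5, usual acceptor: ctgtactttgtgcagTGGCTCGTGGGTTTC
Cyb561 exon 4 to 5, upstream acceptor: ctgtactttgtgcagGTCCCAGCCAGCTCA

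For Slc6a2, the next sequence covers chr8:92961186-92961215 on the plus strand, with capitals for the 19 bases that an unannotated acceptor adds to the exon with the start codon.
Slc6a2 unannotated acceptor: catacaagcagAACTTTGGTGTGTCCCCAG

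Upstream windows from RefSeq (GRCm38.p6), of 250 bases before to 50 after a start site, were found for 6 of the 10 genes. TGACGTCA, the full cyclic AMP response element, was searched on both strands and was present in 588 of 32851 windows of all genes (1.79%) and in 2 of the 7 windows of these genes, those of Th and Slc18a2. Its capitals stand 45 to 38 bases before the Th start site and span the start site of Slc18a2, where a CAGCTG E-box is also capitalised; CAGCTG was present in 16.3% of all windows. The windows of Dbh, Ddc, Gch1 and Maoa held neither. Of the other motifs searched on both strands, TATAAA was in 2 of the 7 windows (13.6% of all windows), and the Egr1 motif GCGGGGGCG (2.91%) and the CAGATG E-box (17.2%) were in 0 of them. The sequences show 90 bases before and 10 after the start, at chr7:142899986-142900085 (minus strand) and chr19:59260788-59260887 (plus strand).
Th upstream region: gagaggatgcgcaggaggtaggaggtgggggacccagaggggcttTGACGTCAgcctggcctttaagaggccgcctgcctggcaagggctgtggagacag
Slc18a2 upstream region: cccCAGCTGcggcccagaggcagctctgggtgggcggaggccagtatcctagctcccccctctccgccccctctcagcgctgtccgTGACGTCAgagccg

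Levels spanned more than 2 orders of magnitude. Th had 2150 reads in replicate 1 and 1341 in replicate 2, a mean level of 1673 ± 911 CPM (SD, n = 2), and ranked 49 among all genes. Pnmt, the enzyme of the last step, had 593 and 922 reads, 673 ± 48.3 CPM, and ranked 185. In both libraries each had more reads than either of the 2 enzymes that act between them.

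Dbh had 274 and 173 reads, or 214 ± 115 CPM. Ddc, the decarboxylase, had 13 and 16 reads, or 13.1 ± 1.23 CPM, and was the lowest of the 4 enzymes in both libraries. Relative to each read of Th there were 0.00605 reads of Ddc in replicate 1 and 0.0119 in replicate 2. Enzyme activity was not measured, and read counts of different enzymes do not give the rate of their steps.

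Gch1 makes the first intermediate of tetrahydrobiopterin, the cofactor that tyrosine hydroxylase needs. Its 129 and 169 reads gave 134 ± 6.62 CPM, a smaller spread between libraries than that of Th or Dbh. Cyb561 was the most abundant of the vesicle membrane genes, with 525 and 326 reads and 408 ± 223 CPM.

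The vesicular transporters were much lower. Slc18a2 (VMAT2) had 37 and 23 reads, or 28.8 ± 15.7 CPM, and Slc18a1 (VMAT1) had 17 and 15 reads, or 14.9 ± 4.82 CPM. The ratio of Slc18a2 to Slc18a1 reads was 2.18 in replicate 1 and 1.53 in replicate 2. Slc18a2 made up 68.5% of the reads of the pair in replicate 1 (Clopper-Pearson 95% interval 54.4 to 80.5%) and 60.5% in replicate 2 (43.4 to 76.0%), so in replicate 2 the interval includes equal use.

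Slc6a2, the plasma membrane noradrenaline transporter that sympathetic neurons are known for, had 11 and 12 reads, or 10.5 ± 1.87 CPM. Maoa, a mitochondrial oxidase that degrades these amines, had 21 and 20 reads, or 19.0 ± 5.15 CPM. Both were detected in each library at levels where 1 read changes the value appreciably.

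By mean CPM the order was Th, Pnmt, Cyb561, Dbh, Gch1, Slc18a2, Maoa, Slc18a1, Ddc and Slc6a2. The values of the libraries did not overlap between Th and Pnmt, between Pnmt and Cyb561, between Gch1 and Slc18a2, or between Ddc and Slc6a2, which rested on 11 to 16 reads per library. They overlapped between Cyb561 and Dbh, between Dbh and Gch1, and between each neighbouring pair from Slc18a2 down to Ddc. A long read is counted once whatever the length of its transcript, so CPM was not divided by length; per kilobase of mean model length the first 5 places stayed as they were and Ddc moved from place 9 to place 6.

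**Figure D1:**
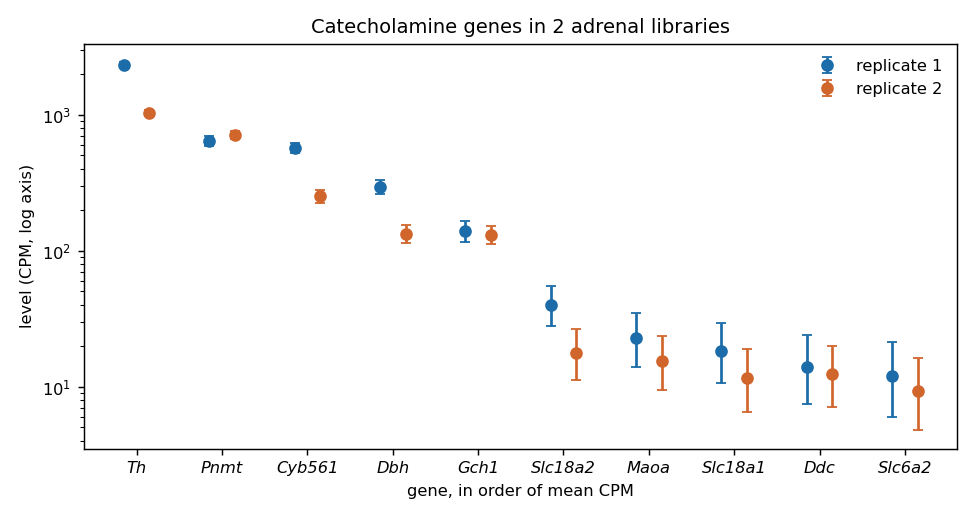
Level of each gene in CPM (log axis) in replicate 1 and replicate 2, with exact Poisson 95% intervals of the read count. Th, Cyb561, Dbh and Slc18a2 have lower points in replicate 2, while those of Pnmt, Gch1 and Ddc lie close together.

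Between the libraries, Th, Dbh, Cyb561 and Slc18a2 were lower in replicate 2, with ratios from 0.442 to 0.450 when all reads were counted. Th went from 2317 to 1029 CPM, a ratio of 0.444 (adjusted p = 2.15e-122, two-sided Fisher's exact test with Benjamini-Hochberg adjustment over 11650 genes). Dbh went from 295 to 133 CPM, a ratio of 0.450 (adjusted p = 1.64e-15 by the same exact test). Cyb561 went from 566 to 250 CPM, a ratio of 0.442 (exact test, adjusted p = 2.65e-30). Slc18a2 went from 39.9 to 17.7 CPM, a ratio of 0.446 (exact test, adjusted p = 0.00921).

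Thus 4 of the 10 genes were lower and 0 were higher, also at an unadjusted p under 0.05. The background was wide: 35.1% of 11650 tested genes differed between the libraries, 22.2% lower and 13.0% higher in replicate 2. The median log2 ratio of replicate 2 over replicate 1 was -0.61 over the 10 genes and -0.25 over all tested genes.

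Pnmt did not share this difference. It had 639 CPM in replicate 1 and 707 CPM in replicate 2, a ratio of 1.11 (exact test, adjusted p = 0.123). The Pnmt to Th ratio of reads was 0.276 in replicate 1 and 0.688 in replicate 2, and the Dbh to Th ratio was 0.127 and 0.129. Pnmt reads were 21.6% of the Pnmt and Th reads in replicate 1 (Clopper-Pearson 95% interval 20.1 to 23.2%) and 40.7% in replicate 2 (38.7 to 42.8%), and these intervals do not overlap.

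The other 5 genes, Gch1, Ddc, Slc18a1, Maoa and Slc6a2, had ratios between 0.631 and 0.932, and none passed the threshold. For 4 of them, all but Gch1, the 95% interval of the log2 ratio also covered the ratio of Th, so a difference of that size is not excluded. For Gch1 the interval ran from -0.44 to 0.24 and did not reach the log2 ratio of Th, -1.17.

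The scaling of the libraries affected some of these calls. TMM factors moved the median log2 ratio of all tested genes from -0.25 to 0.01 and DESeq2 size factors moved it to 0.00, and the share of higher genes among all that differed went from 36.9% to 59.7% and 59.3%; it was 56.1% relative to genes of the same length. With these factors Th, Dbh and Cyb561 were still lower, at log2 ratios of -0.91, -0.89 and -0.91 with TMM. The exact test no longer called Slc18a2 (adjusted p = 0.0635 with TMM and 0.0630 with DESeq2 size factors). Pnmt was instead called higher in replicate 2 (log2 ratio 0.41, exact test, adjusted p = 7.02e-07 with TMM; 0.40, adjusted p = 1.20e-06 with DESeq2 size factors), as were 16.9% of all tested genes under each scaling.

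The ratio fell with transcript length up to 2741 nt. The 300 tested genes nearest to Pnmt in transcript length (1154 nt) had a median log2 ratio of 0.11, close to the 0.15 of Pnmt, and those nearest to Th (1829 nt), Dbh (2552 nt) and Cyb561 (2741 nt) had medians of -0.28, -0.46 and -0.49. Relative to these medians Th, Dbh and Cyb561 were lower by 0.89, 0.69 and 0.69 on the log2 scale in replicate 2, past the threshold in the exact test (adjusted p = 5.53e-70, 8.84e-06 and 2.58e-10). Slc18a2 was not (exact test, adjusted p = 0.199). At greater lengths the medians fell no further. They were -0.48, -0.49 and -0.36 for genes nearest to Slc18a2 (3785 nt), Maoa (4167 nt) and Slc6a2 (6187 nt).

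Marker lists of other cells moved as well, beside 22.2% of all tested genes lower and 13.0% higher in replicate 2. In the adrenal cortex list 7 of 8 genes were lower in replicate 2, with a summed level of 32882 CPM in replicate 1 and 21151 CPM in replicate 2, and in the endothelium list 4 of 5 were lower. All 7 hepatocyte genes were higher, with a summed level of 9293 and 27795 CPM, as were 4 of 6 brown fat genes (8158 and 9831 CPM over the list), while the other two, Ucp1 and Elovl3, were lower. Of 6 tested sympathetic neuron genes 3 were higher (89.5 and 147 CPM) and 0 lower, and of 8 chromaffin cell genes 4 were lower. Their part in the differences of the catecholamine genes was not tested.

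**Figure D2:**
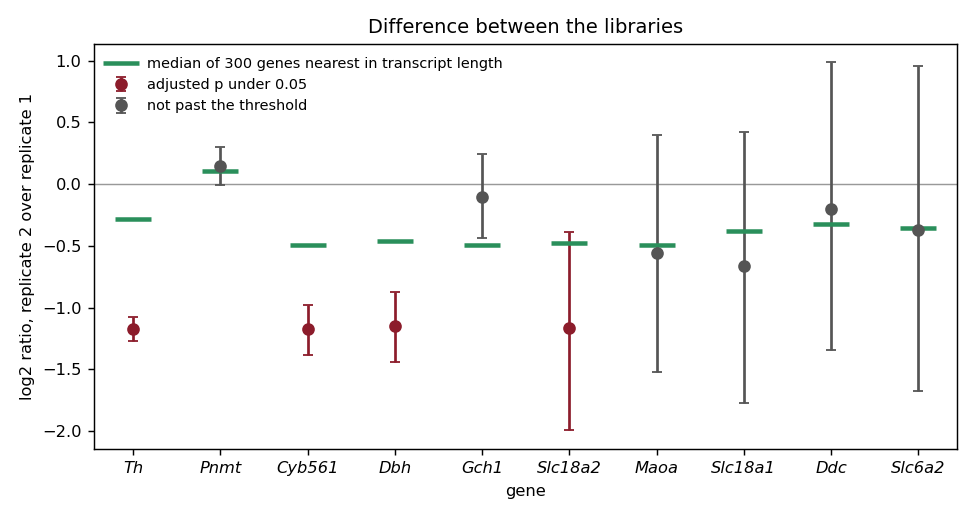
Log2 ratio of each gene, replicate 2 over replicate 1, with exact 95% intervals; green bars mark the median ratio of the 300 tested genes nearest in transcript length. Th, Cyb561, Dbh and Slc18a2 lie near -1.2 and pass the threshold, and Pnmt lies on the bar of genes of its length.

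The reads of these genes also differed in structure. TALON, the long-read annotation program behind the models, puts a read in the class Known when its introns are those of an annotated transcript and ISM (incomplete splice match) when they are a part of one. NIC models combine annotated splice sites in an unannotated way, NNC models use an unannotated site, and Genomic models here are mostly unspliced. Some models classed NIC here nevertheless used a site that is not annotated. Over all 10 genes, 80.7% of reads in replicate 1 and 72.6% in replicate 2 were Known, beside 79.8% and 73.9% over all annotated genes.

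Each unannotated intron chain was 1 model in each library, so the ends of a model stand for all its reads. Of reads on unannotated multi-exon models of these genes, 90.7% and 96.5% had a model that began exactly at an annotated exon edge. The positions of introns are therefore the measurement, and the start sites of such models are not.

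**Figure D3:**
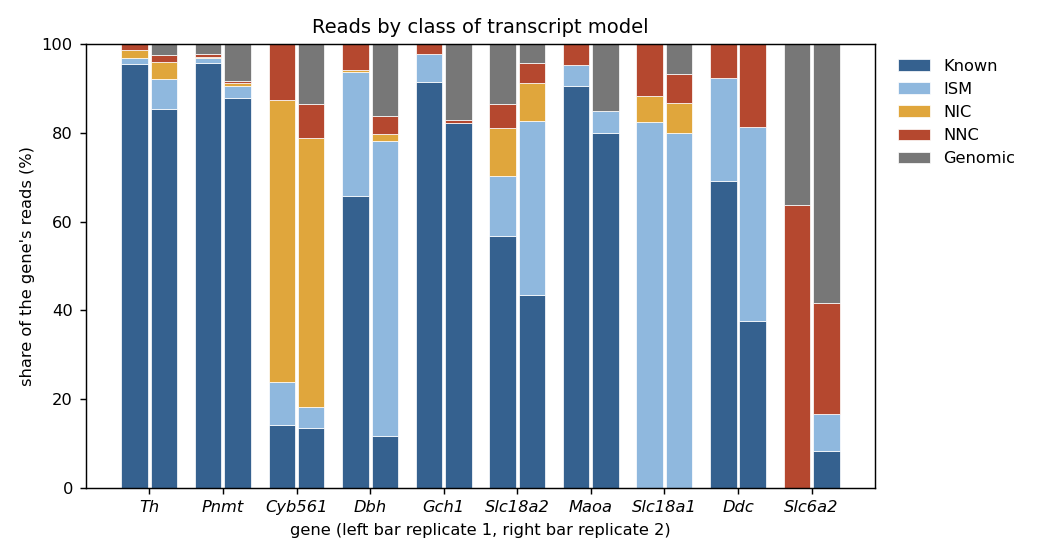
Share of reads (%) of each gene in the model classes Known, ISM, NIC, NNC and Genomic, for replicate 1 (left bar) and replicate 2 (right bar). Cyb561 is mostly NIC in both libraries, and Dbh goes from mostly Known to mostly ISM.

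The main Cyb561 transcript was not in the annotation. Its most-read model had 6 exons and 282 reads in replicate 1 (53.7% of the reads of the gene) and 175 in replicate 2 (53.7%). All 5 of its introns are annotated, but in different transcripts: it enters the start-codon exon from a donor at chr11:105940100, an exon edge annotated only inside Cyb561-204 and Cyb561-207, and then follows Cyb561-201 to the end. The annotated Cyb561-201 (chr11:105933702-105944412, minus strand) had 63 and 38 reads, 12.0% and 11.7%. The share of Known reads was 14.1% and 13.5% and did not differ between libraries (exact test, adjusted p = 1.000).

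Which upstream exon was joined to the start-codon exon could be read from 467 reads in replicate 1 and 262 in replicate 2. The donor at 105940100 took 330 of them in replicate 1 (70.7%, Clopper-Pearson 95% interval 66.3 to 74.8%) and 195 in replicate 2 (74.4%, 68.7 to 79.6%). The first exon of Cyb561-201, with its donor at 105944111, was joined directly to the start-codon exon in 71 reads (15.2%) and 41 reads (15.6%). With reads that leave this donor for a further exon before the start-codon exon included, 106 reads in replicate 1 (22.7%, 19.0 to 26.8%) and 57 in replicate 2 (21.8%, 16.9 to 27.2%) used it.

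In most reads with the donor at 105940100 that exon was the first of the model, in 294 reads of replicate 1 and 179 of replicate 2. The others had a further exon upstream, among them a 7-exon NIC model with 32 and 15 reads that begins in the region of the annotated first exon. The model gives the exon a length of 65 nt, which is the length of the internal exon in Cyb561-207.

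A further 11 donors were unannotated, with 66 reads (14.1%) in replicate 1 and 26 (9.92%) in replicate 2. Only 3 of the 11 had reads in both libraries. The donor at 105939930, which makes a 2089-nt intron, had 26 and 14 reads, and the donor at 105938538, which makes a 697-nt intron, had 28 and 9 reads. All these introns ended at the annotated acceptor of the start-codon exon, so the choice of upstream exon leaves the annotated start codon of Cyb561-201 in place.

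**Figure D4:**
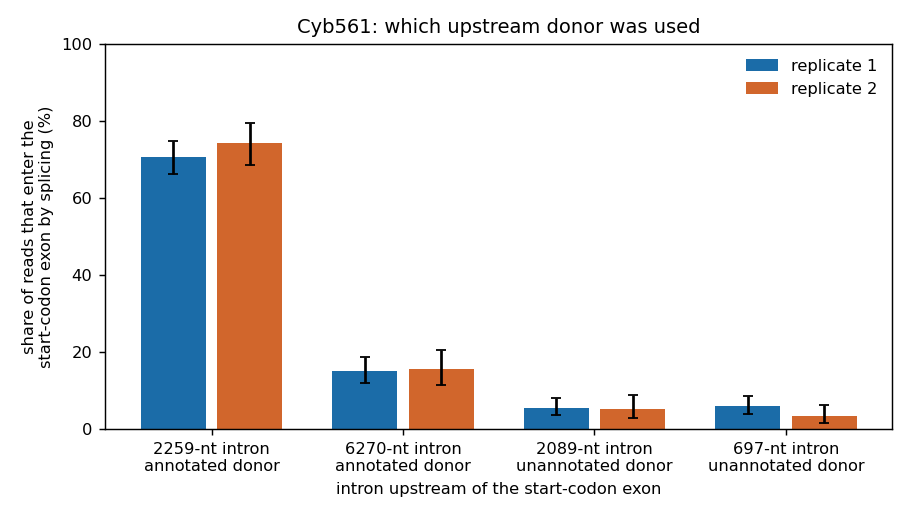
Share (%) of reads entering the start-codon exon of Cyb561 through each of the 4 most-used upstream introns, with Clopper-Pearson 95% intervals, in replicate 1 and replicate 2. The 2259-nt intron takes over 70% in both libraries and the 6270-nt intron of the annotated main transcript about 15%.

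A minority of Cyb561 reads began exon 5 at the acceptor printed above, 44 bases upstream of the usual one. There were 17 of 499 such reads in replicate 1 (3.41%, Clopper-Pearson 95% interval 2.00 to 5.40%) and 11 of 279 in replicate 2 (3.94%, 1.98 to 6.95%). This acceptor belongs to the annotated Cyb561-206, which had 5 and 3 reads itself, and 44 is not a multiple of 3. It was also found with the main upstream exon, in a 6-exon NIC model with 6 and 3 reads. Cyb561-203, a short annotated transcript without a coding sequence, had 6 and 3 reads.

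Most remaining Cyb561 models with 5 or more reads were fragments of the 3′ part. A 5-exon ISM model that starts inside the start-codon exon had 25 and 11 reads, and a 3-exon one had 7 and 2. Unspliced models inside the last exon had 16 reads in replicate 1 (classed ISM) and 44 in replicate 2 (classed Genomic). A model of 6 exons, no such fragment, joined the 697-nt intron with the upstream exon 5 acceptor and had 2 and 3 reads. It was classed NIC although the donor of that intron is unannotated.

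Th showed the annotated structure almost throughout. Th-201 (chr7:142892752-142900014, minus strand, 13 exons) was the only one of 6 annotated transcripts with reads, 2053 in replicate 1 and 1145 in replicate 2. The Known share was 95.5% (Clopper-Pearson 95% interval 94.5 to 96.3%) and 85.4% (83.4 to 87.2%), a difference that passed the threshold (exact test, adjusted p = 1.29e-22). The share of Known reads was lower in replicate 2 for 19.7% of 6342 tested genes, and for 3 of the 7 catecholamine genes with enough reads, Th, Dbh and Pnmt.

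The other Th reads were spread over many rare models. An unspliced model of 215 nt at the 3′ end had 0 and 33 reads, a 7-exon ISM model had 1 and 25, a 6-exon one had 1 and 20, and a 12-exon ISM model that lacks the first exon had 14 and 11. Among reads whose last intron was spliced, 98.5% in replicate 1 and 92.2% in replicate 2 also had the first intron spliced.

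Retained introns in Th, described after their values were seen, lay between spliced introns in 31 reads of replicate 1 (1.44%) and 47 of replicate 2 (3.50%). Intron 8, 158 nt long, was retained in 14 and 31 of them, and intron 5, 331 nt long, in 19 and 16. Exon 2, of 225 nt, was left out in 5 and 3 reads. These variants were present in both libraries, each at a few percent of reads or less.

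Dbh had the largest difference in Known share of the 7 genes tested. The full annotated chain of Dbh-201 (chr2:27165233-27183200, plus strand, 12 exons) had 180 of 274 reads in replicate 1 (65.7%, Clopper-Pearson 95% interval 59.7 to 71.3%) and 20 of 173 in replicate 2 (11.6%, 7.21 to 17.3%; exact test, adjusted p = 3.01e-29). A fall this large, Dbh included, was seen in 35 of the 6342 tested genes. The RefSeq and GENCODE starts of Dbh lie 274 bases apart, and these models do not tell which was used.

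Most remaining Dbh reads were ISM models that keep the 3′ end and lack exons at the 5′ end: 72 reads in replicate 1 (26.3%) and 112 in replicate 2 (64.7%). The most-read were a 3-exon model with 10 and 38 reads, a 10-exon model with 18 and 24, and a 4-exon model with 6 and 14. An unspliced model of 1437 nt had 0 and 27 reads, and covers 535 nt of the last exon and 902 nt of the intron before it.

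Along Dbh the spliced share fell towards the 5′ end, in replicate 2 in steps. The last intron was spliced in 97.1% of reads in replicate 1 and 81.5% in replicate 2, intron 6 in 89.4% and 45.7%, and the first intron in 71.9% and 13.3%. In replicate 2 the share fell from 78.0% at intron 10 to 54.3% at intron 9. It then stayed at 45.1 to 45.7% over introns 8 to 6, and fell from 30.6% at intron 3 to 16.8% at intron 2. Of the reads with the last intron spliced, 192 of 266 in replicate 1 (72.2%, 66.4 to 77.5%) and 22 of 141 in replicate 2 (15.6%, 10.0 to 22.7%) also had the first. The ratio of Dbh between libraries therefore depends on which reads are counted. The log2 ratio was -1.15 for all reads (a ratio of 0.450) and -3.52 for Known reads alone, scaled to the Known reads of each library.

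An unannotated exon of Dbh, singled out after its values were seen, lay between exons 9 and 10 at chr2:27180312-27180419. It is 108 nt long, a multiple of 3, and was present in 6 reads of replicate 1 and 2 reads of replicate 2.

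Pnmt is a short gene of 3 exons (chr11:98386450-98388181, plus strand), and Pnmt-201 had 567 and 809 reads. Its Known share was 95.6% and 87.7% (exact test, adjusted p = 1.95e-06). Unspliced models that cover 1 or both introns had 13 reads in replicate 1 (2.19%) and 75 in replicate 2 (8.13%). They held most of the reads outside Pnmt-201 in replicate 2, but not in replicate 1. With unspliced Genomic models left out the Known share was 97.8% and 95.5% and no longer passed the threshold (exact test, adjusted p = 0.148).

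Where Pnmt reads were spliced they were nearly always complete, with 568 of 570 reads (99.6%) and 811 of 830 reads (97.7%) that had the second intron also having the first. A 2-exon ISM model that lacks the first exon had 0 and 17 reads, and one with the first intron alone had 7 and 9. A model joining exon 1 to exon 3, which leaves out the 208 nt of exon 2, had 0 and 5 reads.

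Gch1-201 (chr14:47153895-47189413, minus strand, 6 exons) had 118 of 129 and 139 of 169 reads, and no other multi-exon model of Gch1 had more than 3 reads over both libraries. Unspliced models in the last exon had 7 reads in replicate 1 and 29 in replicate 2. Those of replicate 1 were classed ISM and those of replicate 2 Genomic, and the direction of the difference in Known share turned on this. The Known share was 91.5% and 82.2% over all reads (exact test, adjusted p = 0.105). Leaving out unspliced Genomic models gave 91.5% and 99.3% (exact test, adjusted p = 0.0195), but took unspliced reads from replicate 2 alone. That setting therefore does not treat the libraries alike. All 5 introns were spliced in about the same share of reads, from 91.5 to 94.6% in replicate 1 and from 82.2 to 82.8% in replicate 2. Maoa-201 (chrX:16619698-16687818, plus strand, 15 exons) had 19 of 21 and 16 of 20 reads despite a length of 4167 nt.

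Slc18a2-201 (chr19:59260896-59296012, plus strand, 16 exons) had 21 of 37 reads in replicate 1 and 10 of 23 in replicate 2. A 14-exon ISM model that lacks the first 2 exons had 2 and 3. Of reads with the last intron, 26 of 32 (81.2%, Clopper-Pearson 95% interval 63.6 to 92.8%) and 12 of 20 (60.0%, 36.1 to 80.9%) had the first, and these intervals overlap.

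Slc18a1 had no read on any of its 5 annotated transcripts. Its main model was a 16-exon ISM chain with 13 reads in replicate 1 and 4 in replicate 2, which has introns 2 to 16 of Slc18a1-201 (chr8:69037711-69089222, minus strand). The first intron of Slc18a1-201, 11717 nt long, was spliced in 0 of 17 and 0 of 14 reads that had the last intron; 0 reads allow up to 3 in each library. The second intron was spliced in 16 of those 17 reads and in 6 of those 14. Exon 15, of 120 nt, was left out in 2 reads of each library. Opposite-strand reads at this locus, from Atp6v1b2 and in replicate 2 also from an unannotated locus, numbered 258 and 154 and were counted separately.

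**Figure D5:**
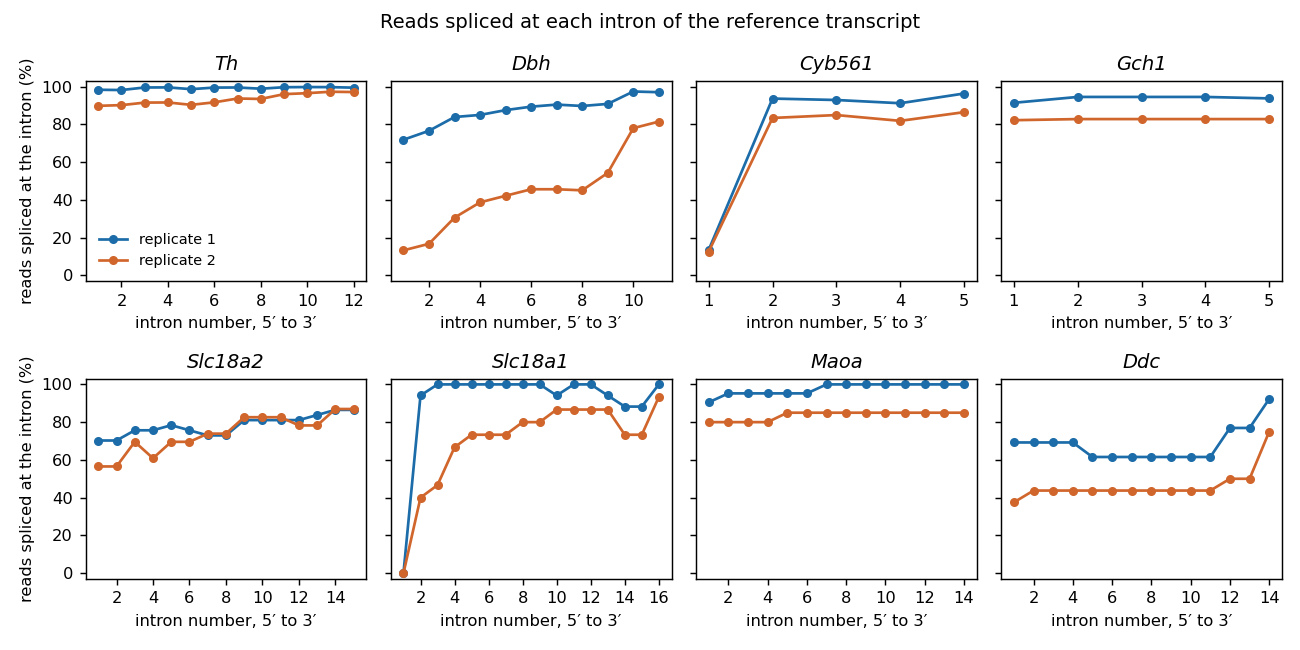
Share (%) of the reads of a gene that are spliced at each intron of its reference transcript, numbered from the 5′ end, in replicate 1 and replicate 2. Dbh declines towards the 5′ end, to 71.9% and 13.3% at the first intron, Th and Gch1 stay nearly flat, and the first intron is rare in Cyb561 and at 0 in Slc18a1.

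Slc6a2 also had hardly any reads on its annotated transcripts. A 15-exon NNC model had 6 of 11 reads in replicate 1 and 3 of 12 in replicate 2, and the annotated transcripts together had 0 and 1. Its first intron, chr8:92960761-92961196, differs from the first intron of Slc6a2-202 at both sides: the donor lies 579 bases further downstream, and the acceptor lies 19 bases upstream. The bases just before that acceptor are ag, as the sequence above shows, and the annotated start codon lies 32 bases after the annotated acceptor, so it is retained. The other 13 introns are those of Slc6a2-202. Unspliced models in the last exon had 4 reads in replicate 1 and 6 in replicate 2.

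Ddc has alternative first exons, which are known to be used differently in neural and other tissues. Ddc-202, which begins at chr11:11890408 on the minus strand, had 8 reads in replicate 1 and 5 in replicate 2, while Ddc-210, which begins 7736 bases upstream, had 0 and 1. In replicate 2 the unannotated introns chr11:11892684-11898011 and chr11:11896537-11898011 had 1 read each. Both left an annotated donor of that upstream region, so Ddc-210 alone undercounts the reads from it. A 2-exon ISM model of the 3′ end had 2 and 4 reads. With so few reads the share of each start was not resolved further.

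Over the 10 genes there were 209 unannotated chains with introns, of which 50 occurred in both libraries and 131 had only 1 read. The 50 shared chains held 564 of 679 such reads in replicate 1 and 488 of 604 in replicate 2. Of 108 unannotated introns 24 were in both libraries, and 87 used an annotated site on at least 1 side. Among annotated transcripts, the balance of transcripts within a gene could be tested only for Cyb561, where Cyb561-201 had 85.1% and 86.4% of Known reads (exact test, adjusted p = 1.000; 2.17% of 3040 genes differed). When every model was compared by its introns, the share of the most-read model differed for Th, Dbh and Pnmt of 7 genes tested, beside 21.0% of all genes. For Th, Dbh and Pnmt the counts are those of the Known-share test, so this is not a separate result.

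Other genes of the pathway were present too. Of 7 genes that make or recycle tetrahydrobiopterin or control it, all had reads in both libraries, with Qdpr (recycling) at 186 ± 1.85 CPM, Pts (second step) at 75.3 ± 10.9, Pcbd1 at 51.0 ± 38.6 and Pcbd2 at 46.5 ± 35.2. In this list 4 of 7 were higher in replicate 2 and 0 lower, beside 13.0% and 22.2% of all tested genes. The median log2 ratio was 1.36 against -0.25 over all tested genes. This list was not examined under the other scalings or relative to genes of the same length. Gch1 itself, at the head of this route, did not pass the threshold (exact test, adjusted p = 0.708).

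Among 8 other genes of monoamine breakdown, Akr1a1 (aldehyde reductase) reached 649 ± 15.4 CPM, Aldh2 (aldehyde dehydrogenase) 421 ± 408 and Sult1a1 (sulfation) 98.8 ± 20.9. Each of these exceeded Maoa at 19.0 CPM, though none is restricted to amine breakdown. Aldh2 was higher in replicate 2 and the other 7 did not pass the threshold.

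Of 8 other amine transporters, the dopamine transporter Slc6a3 and the vesicular acetylcholine transporter Slc18a3 had no read. Slc29a4 (30.4 ± 18.0 CPM) and the serotonin transporter Slc6a4 (27.9 ± 20.0 CPM) stood above Slc6a2. Of 4 tested genes of this list, Slc29a4 and Slc6a4 were lower in replicate 2 and 1 was higher, beside 22.2% and 13.0% of all tested genes. Neither tryptophan hydroxylase, Tph1 nor Tph2, which serotonin synthesis needs, had a read, while Hdc (histamine synthesis) had 12.8 ± 6.22 CPM.

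The relatives of Cyb561 were low: Cyb561a3 had 35.2 ± 9.65 CPM and Cyb561d2 33.9 ± 2.36 CPM, and the ascorbate transporter Slc23a2 had 11.6 ± 3.40 CPM. None of the 4 tested genes of that list passed the threshold in either direction (exact test, smallest adjusted p = 0.206). The granule proteins Chgb (3107 ± 1622 CPM) and Chga (3061 ± 1184 CPM) exceeded Th, and Scg2 had 969 ± 703 CPM. Of 17 tested genes of the granule and regulator list 6 were lower, these 3 among them with ratios of 0.461, 0.570 and 0.322. In the same list 2 were higher, the neuropeptide gene Npy (320 ± 213 CPM) among them. Over all tested genes 22.2% were lower and 13.0% higher. Of the genes for glucocorticoid and cyclic AMP input, Egr1 (41.6 ± 19.2 CPM) was higher, Adcyap1r1, the PACAP receptor (18.1 ± 12.5 CPM), was lower, and Nr3c1, the glucocorticoid receptor (20.9 ± 5.17 CPM), and Gal (16.1 ± 7.57 CPM) did not pass the threshold.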

How the data were processed

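Per the labels, 2 libraries of adrenal total RNA were sequenced with long reads. The deposited tables hold raw read counts for each transcript model with no normalization, and the deposited tables and annotations give exon numbers, lengths in bases and 1-based mm10 positions (other unit). Models are GENCODE M21 transcripts plus those added by TALON, per the files; aligner and version: not given in the sources used here. From the deposited counts, reads were summed over all models of a gene and expressed as CPM of reads on annotated genes, without spike-ins and unannotated loci. For each gene with a summed count of at least 10, its reads and all other gene reads were compared between libraries by Fisher's exact test (two-sided, scipy 1.17.1), with Benjamini-Hochberg adjustment over all genes and a threshold of 0.05. Log2 ratios had 0.5 reads added. This compares libraries, not conditions. Known shares were tested where both libraries had 20 or more reads. TMM factors came from edgeR 4.0.16 and size factors from DESeq2 1.42.0. The script was tested on simulated data. The p values, intervals (95%) and floor of 3 reads cover counting error alone: after PCR, several reads can stem from 1 molecule. The reference transcript of a gene is its most-read annotated one with 5 or more reads, otherwise that with most exons.

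Named were all 10 genes, up to 4 genes per list by mean CPM (some list genes are not reported here), up to 3 annotated transcripts per gene and up to 3 unannotated chains (all for Cyb561) with 5 or more reads. Genes and lists were chosen with earlier results of these data known. Alternatives were other scalings, model classes, read minimums and leaving out each library. Sequences come from GENCODE M21 transcripts and the RefSeq table (GRCm38.p6). Unannotated exons outside annotated transcripts were not read, as no genome sequence was used here.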

Additional observations from a re-analysis of the deposited data

How the results depend on the processing

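No paired analysis was possible because the series has 1 group. The count of genes that differed between libraries, 4091, was 2665 relative to genes of the same length and 2337 when a 2-fold ratio was also needed; the count of catecholamine genes stayed at 3 or 4 under all 8 alternatives. The count of genes with a different Known share, 1285, was 647 when Known and ISM models were counted as annotated and 806 without unspliced Genomic models; for the catecholamine genes it was 3 or 4, but not always the same ones. Without Genomic models Pnmt was lost (exact test, adjusted p = 0.148) and Gch1 was gained, higher in replicate 2. With Known and ISM models together Gch1 was gained, lower in replicate 2, at 97.7% and 82.2% (exact test, adjusted p = 2.48e-04). Unspliced Gch1 reads were classed ISM in replicate 1 and Genomic in replicate 2. Both settings therefore treated the libraries unlike, and neither Gch1 call is read as a difference in structure. The count for isoform use, 66, was 1298 when every model was compared by its introns, which takes in unannotated and truncated models. For the catecholamine genes 0 became 3, but only Cyb561 could be tested in the first form. Th, Dbh and Pnmt entered only the second, with the same counts as in their Known-share tests. Of 74 alternatives for the log2 ratios of single genes 62 kept direction and side of the threshold, 4 lost the call, all for Slc18a2, and 2 gained it, both for Pnmt. The other 6 changed sign without passing the threshold on either side: Ddc, -0.20, became 0.061 with TMM factors, 0.055 with DESeq2 size factors and 0.13 relative to genes of the same length, and Gch1, -0.10, became 0.16, 0.15 and 0.39. Slc18a2 was also lost without Genomic models (exact test, adjusted p = 0.0503). Levels moved by more than the spread between libraries in 8 of 70 alternatives: with annotated transcripts alone, Cyb561 fell to 72.8 CPM, Slc18a1 to 0 and Slc6a2 to 0.519, while Pnmt rose to 802 CPM. Genes with under 40 reads (Ddc, Slc18a1, Slc6a2) are limited by depth.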
